A study of Mus musculus with 6 samples.

Results

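The genes described here encode 10 membrane proteins that share the TLC domain (named after TRAM, LAG1 and CLN8): 5 ceramide synthases (Cers1, Cers2, Cers4, Cers5 and Cers6) and 5 TLC domain-containing proteins (Tlcd1, Tlcd2, Tlcd3a, Tlcd3b and Tlcd4). They were picked by name out of the 43074 gene names in each library's table. The set was chosen from results of the same WT against mKO contrast, in which Tlcd3b and Tlcd4 were already known to be lower in mKO. The contrast of the members is therefore a description: their fold changes, intervals and calls are read off a fit over all genes, no p-value is given for them, and none of these is evidence that the members differ. RNA of mouse soleus, a postural hindlimb muscle, was measured by poly(A) RNA sequencing in 3 libraries labelled WT and 3 labelled mKO. WT is also called control in the series text, and mKO stands for StarD7 mKO mice. StarD7 is a lipid transfer protein that carries phosphatidylcholine, and its gene Stard7 is the one targeted. The promoter driving any Cre, the exons removed, whether controls carried any modified allele, and the animals' age are not given in the sources used here. The labels do not tie a library to an animal, so errors measure the spread between these libraries.

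Ceramide synthases sit in the endoplasmic reticulum and join a fatty acid to a sphingoid base, which makes the ceramide from which sphingomyelin and glycosphingolipids are built. Each synthase prefers fatty acids of a certain length. Cers1 uses the long-chain stearoyl group and is the synthase most associated with skeletal muscle and neurons, Cers2 makes very long-chain ceramides, Cers4 makes long-chain ceramides, and Cers5 and Cers6 make ceramides with the shorter palmitoyl group. The Tlcd proteins carry the same domain without an established synthase activity in every case: Tlcd3b (formerly Fam57b) has been linked to ceramide synthesis and to retinal function, and Tlcd1 and Tlcd2 to the fatty acids found in membrane phosphatidylethanolamine.

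The promoter windows of the 3 members whose WT and mKO values did not overlap are shown here, so that the DNA around their starts can be read beside their levels. All 10 members had at least 1 window in the RefSeq table of the older build GRCm38.p6, 16 windows in all, each of 300 bases from 250 before to 50 after a transcript start. The deposited values were made on GRCm39, so these positions are those of the RefSeq table only. Which start is used in soleus was not measured. Both windows of Tlcd4 overlap, and the one farther upstream is shown. Capitals mark a match to a searched motif.
Tlcd3b, start 1 (chr7:126816635-126816934, strand plus): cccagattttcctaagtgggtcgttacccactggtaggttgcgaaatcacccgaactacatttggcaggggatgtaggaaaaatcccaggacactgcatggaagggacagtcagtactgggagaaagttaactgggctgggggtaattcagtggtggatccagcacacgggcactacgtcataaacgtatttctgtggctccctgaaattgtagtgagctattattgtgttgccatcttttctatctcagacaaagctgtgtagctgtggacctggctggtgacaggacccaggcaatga
Tlcd3b, start 2 (chr7:126823053-126823352, strand plus): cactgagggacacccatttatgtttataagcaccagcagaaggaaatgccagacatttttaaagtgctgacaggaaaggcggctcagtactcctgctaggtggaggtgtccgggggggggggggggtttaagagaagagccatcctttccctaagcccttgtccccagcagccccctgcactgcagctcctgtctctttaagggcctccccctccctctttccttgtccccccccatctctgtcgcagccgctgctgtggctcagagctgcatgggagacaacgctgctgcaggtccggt
Tlcd3b, start 3 (chr7:126824403-126824702, strand plus): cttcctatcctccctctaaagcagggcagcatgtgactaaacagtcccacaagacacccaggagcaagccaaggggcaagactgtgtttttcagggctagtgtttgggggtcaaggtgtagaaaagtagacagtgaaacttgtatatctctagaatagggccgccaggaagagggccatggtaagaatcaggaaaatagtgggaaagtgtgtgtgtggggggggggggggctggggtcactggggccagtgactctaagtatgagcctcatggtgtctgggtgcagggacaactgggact
Tlcd4, start farther upstream (chr3:121263291-121263590, strand minus): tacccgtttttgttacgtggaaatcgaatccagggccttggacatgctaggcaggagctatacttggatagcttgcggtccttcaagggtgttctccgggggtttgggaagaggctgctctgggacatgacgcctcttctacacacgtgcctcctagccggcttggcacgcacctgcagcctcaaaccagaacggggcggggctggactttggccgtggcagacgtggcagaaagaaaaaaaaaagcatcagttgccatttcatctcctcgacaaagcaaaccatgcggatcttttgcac
Cers1, start (chr8:70315525-70315824, strand plus): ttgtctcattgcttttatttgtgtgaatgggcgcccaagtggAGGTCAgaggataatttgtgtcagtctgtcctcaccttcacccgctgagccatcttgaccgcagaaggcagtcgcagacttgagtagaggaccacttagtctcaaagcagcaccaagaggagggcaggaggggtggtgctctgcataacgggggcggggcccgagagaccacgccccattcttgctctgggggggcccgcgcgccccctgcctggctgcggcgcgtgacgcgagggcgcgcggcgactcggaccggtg

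Motifs searched on both strands were the E-box CAGCTG, the MCAT element CATTCC, the MEF3 element TCAGGTT, the nuclear receptor element AGGTCA and the MEF2 site. None of the 3 Tlcd3b windows or the 2 Tlcd4 windows held a match. The Cers1 window, which is also a window of Gdf1 in the table, held 1 AGGTCA, starting 208 bases before the transcript start. Among all 32851 windows, CAGCTG was present in 16.3%, CATTCC in 14.7%, TCAGGTT in 4.07%, AGGTCA in 16.3% and the MEF2 site in 3.19%. Of the other members, a Tlcd1 window held 1 CAGCTG and a Cers2 window held 2 CAGCTG and 1 AGGTCA. A missing match says only that these letters are not in the window.

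Depth was similar across libraries, with 42932984 to 51293552 reads recovered from the TPM values (a level per gene length and per library total). Even numbers made up 58.6% of recovered values above 0; if both mates of a pair were counted, the counting intervals are too narrow. Stard7 stood at 87.5, 95.4 and 94.99 TPM in WT replicates 1, 2 and 3 and at 21.8, 21.3 and 34.6 TPM in mKO replicates 1, 2 and 3, which fits the labels. The library of mKO replicate 3 stood apart from the other mKO libraries, with the highest Stard7 and the highest summed TPM of fast fibre genes among them, and fold changes without it stand beside the calls. All 13 slow fibre markers and all 15 fast fibre markers listed for soleus passed the filter on low values.

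Tlcd3b was the Tlcd gene with the highest level in WT soleus and had the largest difference of the 10 in mean TPM. The WT libraries read 9.03, 11.1 and 10.9 TPM, against 2.67, 2.77 and 4.66 TPM for mKO replicates 1, 2 and 3. Every mKO library was below every WT library, and mKO replicate 3 was the highest of its group. The mean was 10.4 ± 1.15 TPM for WT against 3.37 ± 1.12 TPM for mKO (SD, n = 3 each), so that mKO was at 32.5% of WT. The log2 fold change (mKO minus WT, with 1 added to TPM) was −1.40 (SE 0.17). These levels came from 822, 914 and 938 recovered reads in WT and 215, 237 and 367 in mKO, and the exact 95% Poisson interval of the highest mKO count (330.4 to 406.5) lay below that of the lowest WT count (766.8 to 880.2). Such intervals cover counting error only and are not scaled for depth. Tlcd3b was already known to be lower in these libraries when the set was chosen, so their gap is no evidence of a difference. In whole muscle, fewer cells with a transcript and less of it per cell cannot be told apart.

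Tlcd4 (formerly Tmem56) was lower in mKO by a similar proportion from a lower level. The WT libraries read 3.10, 3.56 and 2.60 TPM, against 0.794, 0.875 and 1.27 TPM for mKO. The groups did not overlap, and mKO replicate 3 was again the highest mKO library. The mean was 3.08 ± 0.479 TPM for WT against 0.98 ± 0.255 TPM for mKO, which is 31.8% of WT (log2 fold change −1.05, SE 0.13). The recovered reads numbered 446 to 586 in WT and 128 to 200 in mKO. The ratio between both genes overlapped: there were 30.1 ± 5.57 Tlcd4 transcripts per 100 Tlcd3b transcripts in WT and 29.5 ± 2.20 in mKO, with overlapping groups. On the log2(TPM + 1) scale the lower gene shows the smaller difference, since the added 1 weighs more at low TPM. With 0.1 added in place of 1, the log2 fold changes were −1.63 and −1.58.

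Cers1, a synthase of long-chain ceramide, was the only ceramide synthase of the set whose groups did not overlap. Among all tested genes 10.3% were lower in mKO without overlap, and limma-trend did not call Cers1. The WT libraries read 3.26, 2.95 and 2.86 TPM, against 1.85, 1.77 and 1.92 TPM for mKO. The mKO libraries lay close together, and mKO replicate 3 differed little from the other two. The mean was 3.02 ± 0.207 TPM for WT against 1.85 ± 0.0779 TPM for mKO, 61.0% of WT, and the log2 fold change was −0.50 (SE 0.09). Recovered reads were 196 to 239 in WT and 120 to 122 in mKO. Cers1 and Gdf1, a gene for a growth factor, are made from a shared transcript: in the GENCODE M21 annotation all 1349 exon bases of Gdf1 lie within exons of Cers1. Gdf1 was listed at 0 in every library except mKO replicate 2, and how reads of the shared stretch were assigned was not tested.

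**Figure D1:**
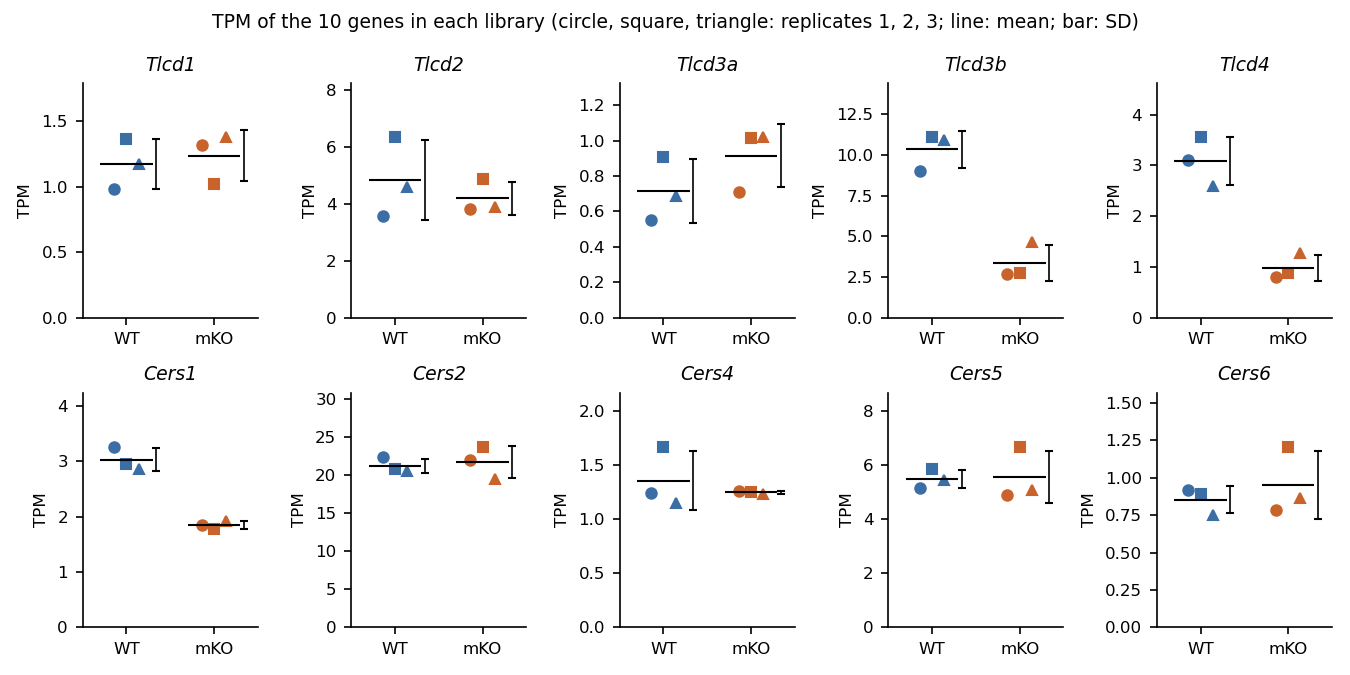
TPM of each of the 10 genes in the 3 WT (blue) and 3 mKO (orange) libraries, each panel on its own linear axis from 0, with the group mean as a line and the SD as a bar. Tlcd3b, Tlcd4 and Cers1 have no overlap between groups, while the other 7 panels overlap.

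Of the 10 members, 8 passed the filter (1 TPM or more in at least 3 libraries) and entered the fit across 12301 genes. Of these 8, limma-trend called 2 lower in mKO, Tlcd3b and Tlcd4, and 0 higher, at a Benjamini-Hochberg adjusted p under 0.05 over all tested genes. Across all tested genes 0.52% were called, and 0.423% were called lower. Since those calls led to the choice of the set, nothing is read from the members' count. The groups did not overlap, with mKO lower, for 3 of the 8 members, against 10.3% of all tested genes. The median log2 fold change was −0.10 over the 8 tested members and −0.01 over all tested genes. With TPM rescaled over nuclear genes alone, the latter moved to 0.09.

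Both Tlcd calls were lost in most fits that left out 1 library. Without WT replicate 1, 2 or 3 or mKO replicate 1 or 2 neither gene was called, at log2 fold changes of −1.49, −1.36, −1.37, −1.29 and −1.31 for Tlcd3b and −1.04, −0.96, −1.13, −0.98 and −1.01 for Tlcd4. Without mKO replicate 3 both were called, at −1.61 and −1.15, and Cers1 stood at −0.52 without a call. In all, the call of Tlcd3b was made in 8 of 14 other settings and that of Tlcd4 in 7, and both kept their direction in all 14. Cers1 kept its direction in all 14 and was called in none.

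**Figure D2:**
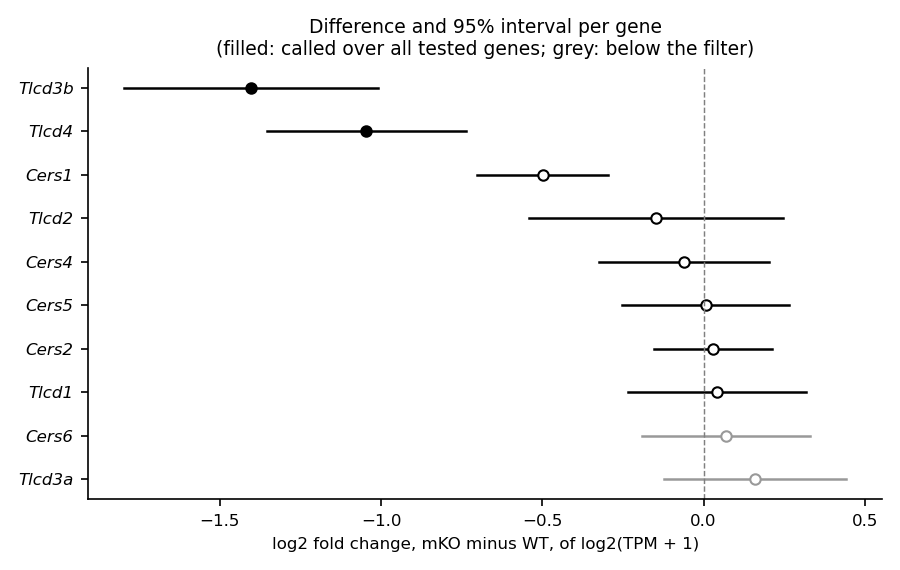
Log2 fold change, mKO minus WT, of log2(TPM + 1) for each gene with its 95% interval from limma-trend, filled where the gene was called and grey for Tlcd3a and Cers6, which were below the filter and come from the fit without one. The intervals of Tlcd3b, Tlcd4 and Cers1 lie below 0 and those of the other 7 genes span 0.

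The remaining ceramide synthases were at nearly the same level in both groups. Cers2, which makes very long-chain ceramides, had the highest level of the set. The WT libraries read 22.3, 20.8 and 20.6 TPM, against 21.98, 23.7 and 19.6 TPM for mKO, with a log2 fold change of 0.03 (95% interval −0.15 to 0.21). Cers5 read 5.16, 5.84 and 5.44 TPM for WT, against 4.91, 6.67 and 5.08 TPM for mKO (0.01, −0.25 to 0.27). The groups overlapped for both, and mKO replicate 2 was the highest library for each. Cers4 had 1.25, 1.67 and 1.16 TPM for WT, against 1.26, 1.25 and 1.24 TPM for mKO (−0.06, −0.32 to 0.20). Cers6 lay under the filter, at 0.749 to 0.916 TPM for WT against 0.781 to 1.21 TPM for mKO. In the fit without a filter its log2 fold change was 0.07 (−0.19 to 0.33). These intervals bound what the 6 libraries could have shown and do not show that the levels were equal.

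Tlcd2, the Tlcd gene with the second highest level in WT, varied more between WT libraries than between groups. Its level was 3.57, 6.34 and 4.60 TPM for WT against 3.81, 4.87 and 3.90 TPM for mKO, with a log2 fold change of −0.15 (95% interval −0.54 to 0.25). WT replicate 2 was the highest library for Tlcd2, and without it the log2 fold change was 0.03. Tlcd1 read 0.984, 1.36 and 1.17 TPM for WT against 1.32, 1.02 and 1.38 TPM for mKO (0.04, −0.23 to 0.32). Tlcd3a, the closest namesake of Tlcd3b, lay under the filter at 0.549, 0.91 and 0.686 TPM for WT against 0.709, 1.01 and 1.02 TPM for mKO. Its log2 fold change was 0.16 (−0.12 to 0.44) without a filter. The groups overlapped for all 3 genes, unlike those of Tlcd3b and Tlcd4.

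The order of the levels, which TPM allows since it is per gene length, changed around Tlcd3b and Tlcd4. In WT the mean TPM ran from Cers2 (21.2) through Tlcd3b (10.4), Cers5 (5.48), Tlcd2 (4.84), Tlcd4 (3.08), Cers1 (3.02), Cers4 (1.36), Tlcd1 (1.17) and Cers6 (0.853) to Tlcd3a (0.715). Neighbours whose ranges over the 3 WT libraries overlapped were Cers5 and Tlcd2, Tlcd4 and Cers1, Cers4 and Tlcd1, and Cers6 and Tlcd3a. In mKO the order was Cers2 (21.7), Cers5 (5.55), Tlcd2 (4.19), Tlcd3b (3.37), Cers1 (1.85), Cers4 (1.25), Tlcd1 (1.24), Tlcd4 (0.98), Cers6 (0.952) and Tlcd3a (0.914). Tlcd3b thus went from rank 2 to rank 4, where its range overlapped that of Tlcd2, and Tlcd4 went from rank 5 to rank 8. From Cers4 down, each gene's mKO range overlapped that of the next, though the range of Cers4 (1.24 to 1.26 TPM) lay above those of Cers6 and Tlcd3a.

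Tlcd3b and Tlcd4 took smaller shares of the summed Tlcd level in every mKO library than in any WT library. The summed TPM of the 5 Tlcd genes was 17.2, 23.3 and 19.99 in WT and 9.29, 10.5 and 12.2 in mKO, without overlap. Tlcd3b made up 51.6% ± 3.57 of that sum for WT against 31.0% ± 6.27 for mKO (−20.6 points), and Tlcd4 made up 15.4% ± 2.50 and 9.08% ± 1.14. Shares of a sum must add up, so the other 3 took larger shares while their levels overlapped: Tlcd2 took 23.7% ± 3.31 in WT and 39.7% ± 7.23 in mKO and became the largest part of the sum in mKO replicates 1 and 2, though not in replicate 3.

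The summed TPM of the 5 ceramide synthases was 32.9, 32.1 and 30.8 in WT and 30.8, 34.6 and 28.7 in mKO, with overlapping groups. Cers1 made up 9.46% ± 0.385 of it in WT and 5.94% ± 0.803 in mKO, and Cers2 made up 66.5% ± 1.63 and 69.4% ± 1.76. The shares of both had no overlap between groups, though the margin for Cers2 was small (67.83% in WT replicate 1, 68.22% in mKO replicate 3). Since shares of a sum must add up, a smaller Cers1 share leaves larger shares for others, and the Cers2 level itself overlapped. Cers4, Cers5 and Cers6 had overlapping shares.

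**Figure D3:**
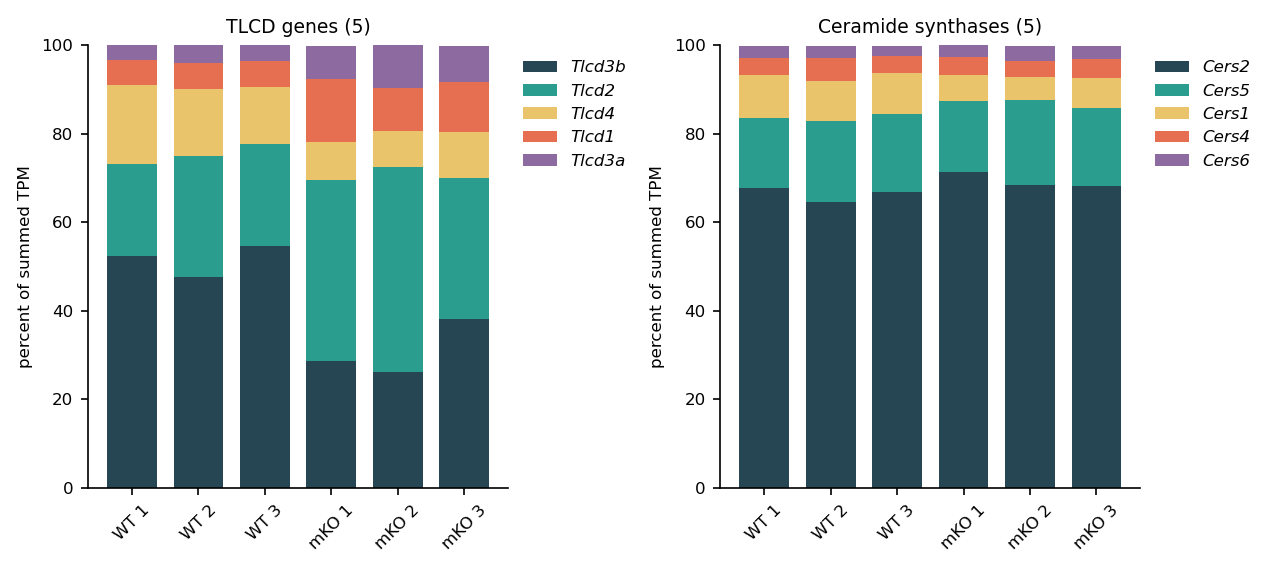
Stacked bars give each gene's percent of the summed TPM of its family in each library, for the 5 Tlcd genes (left) and the 5 ceramide synthases (right). The Tlcd3b part is 47.7% to 54.7% in WT and 26.3% to 38.1% in mKO, and the Cers1 part is 9.19% to 9.90% in WT and 5.11% to 6.71% in mKO.

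Ratios within a library do not depend on how libraries are scaled against each other. Per 100 Cers2 transcripts, there were 40.5, 53.4 and 53.1 Tlcd3b transcripts in WT and 12.1, 11.7 and 23.8 in mKO. For Tlcd4 the ratio was 13.9, 17.1 and 12.6 in WT and 3.61, 3.69 and 6.49 in mKO. For Cers1 it was 14.6, 14.2 and 13.9 in WT and 8.41, 7.45 and 9.84 in mKO. Each of these 3 ratios had no overlap between groups, whereas that of Cers5 to Cers2 overlapped (25.9 ± 2.53 in WT and 25.5 ± 2.92 in mKO). The 3 genes are those whose levels did not overlap, and Cers2 differed little between groups. The ratios therefore restate those levels and add no separate evidence.

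Markers of fast fibres were also lower in mKO. Of 15 listed fast fibre genes, all 15 were tested and below 0, and limma-trend called 6 lower and 0 higher. At an unadjusted p under 0.05 (limma) there were 14 of the 15, beside 1311 of all 12301 tested genes. Their summed TPM ranged from 51820 to 60320 in WT and from 32950 to 42220 in mKO, highest in mKO replicate 3. Actn3, the Z-disc actinin of fast fibres, had 252, 323 and 216 TPM for WT against 15.4, 14.97 and 12.9 TPM for mKO (log2 fold change −4.08, adjusted p = 1.42e-05, limma). Of 13 slow fibre genes 11 were above 0 and 2 below, with 4 at an unadjusted p under 0.05 (limma). Among these 4, Mybpc1 was lower in mKO (log2 fold change −0.20). Limma-trend called 1 slow fibre gene higher, the calcium pump inhibitor Pln, and 0 lower. Pln and Mybpc1, like Actn3, were chosen after their values were seen. The summed TPM of the slow fibre genes overlapped between groups (20700 to 26130 in WT, 21890 to 30210 in mKO). The part of fibre type in the lower Tlcd3b, Tlcd4 and Cers1 was not tested. The summed TPM of markers of adipocytes, Schwann cells and nerve, neurons, endothelium, macrophages, fibroblasts and red cells overlapped between groups for each of these 7 lists, and limma-trend called 0 of their 42 tested genes (2 at an unadjusted p under 0.05; limma-voom called 0 of the 40 it tested).

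Relative to the WT mean, Tlcd3b stood at 25.8%, 26.7% and 45.03% and Tlcd4 at 25.7%, 28.4% and 41.2% in mKO replicates 1, 2 and 3. Stard7 itself stood at 23.5%, 23.04% and 37.3%, and the fast fibre sum at 60.0%, 58.7% and 75.3%. All 4 were highest in mKO replicate 3. Cers1, at 61.1%, 58.4% and 63.6%, was nearly level across the 3 libraries. The fast fibre sum is weighted towards its genes of highest TPM, and single genes of that list differed widely. In mKO the group mean was 9.21% of WT for Myh1, 5.47% for Actn3, 2.21% for Myh4, 1.96% for Pvalb and 0.382% for Mybpc2. The other listed fast fibre genes lay between 46.8% (Myoz1) and 79.4% (Myh2).

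**Figure D4:**
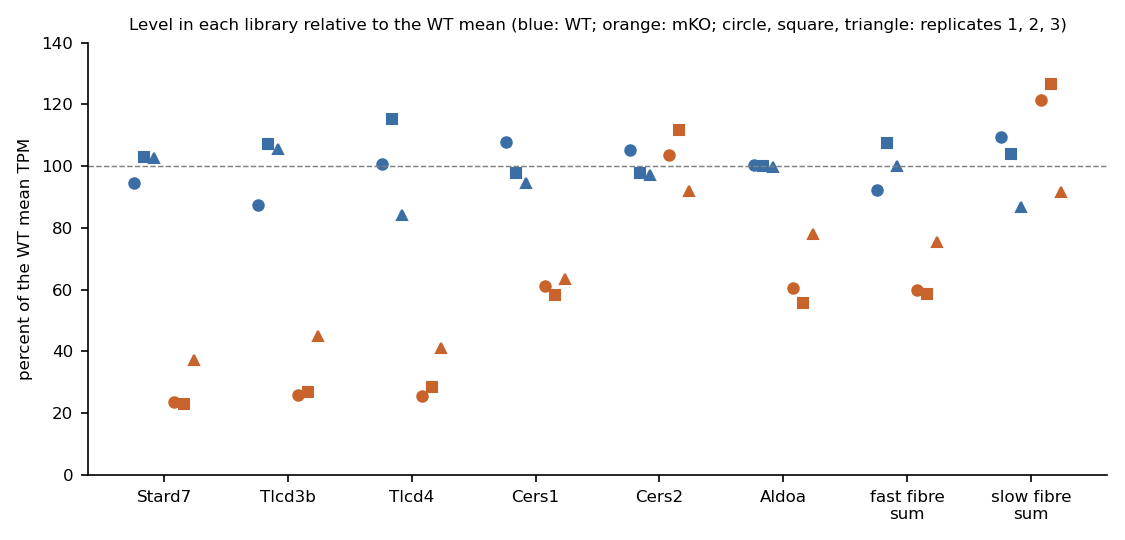
Level in each library as a percent of the WT mean TPM (linear axis from 0) for Stard7, 4 members, Aldoa and the summed fast and slow fibre genes. In mKO replicate 3 (orange triangle) Stard7, Tlcd3b, Tlcd4, Aldoa and the fast fibre sum lie above the other mKO libraries and below all WT libraries.

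The genes with patterns most like those of Tlcd3b, Tlcd4 and Cers1 over the 6 libraries were found by Pearson correlation of log2(TPM + 1). Candidates were the tested genes with a mean of at least 2 TPM that were neither predicted genes nor members. The 6 points fall into 2 groups and share their libraries, so the correlation mostly follows the group difference, and it is given as a description. For Tlcd3b the 4 highest were Kcnj12, an inward rectifier potassium channel (r = 0.998), Phkb, a subunit of phosphorylase kinase (0.996), Stard7 (0.996) and the kinase Gsk3a (0.996). For Tlcd4 they were the phospholipid flippase Atp8a1 (0.997), Cuedc1 (0.996), the ATP synthase subunit gene Atp5g2 (0.995) and the mitochondrial outer membrane channel Vdac1 (0.994), with Stard7 at rank 26. For Cers1 they were Rtn2 (0.997), the elongation factor Eef2 (0.996), the calcium channel subunit Cacng1 (0.996) and the complex I subunit Ndufa3 (0.995), with Stard7 at rank 49. These likenesses are in shape, not size: Gsk3a was at 92.1% of its WT mean in mKO and Vdac1 at 88.2%, against 32.5% for Tlcd3b and 31.8% for Tlcd4.

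Neighbours in the genome were set beside the members because reads of adjacent genes can be assigned to the wrong one. Tlcd3b lies next to Aldoa, the muscle aldolase of glycolysis, on the opposite strand, and 25 of its 3935 exon bases in GENCODE M21 are also exon bases of Aldoa. The expressed Aldoa entry had 3571, 3549 and 3540 TPM for WT against 2157, 1983 and 2776 TPM for mKO (log2 fold change −0.64, SE 0.11, adjusted p = 0.0623, limma). Aldoa was thus also lower in each mKO library, to 64.9% of its WT mean, where Tlcd3b was at 32.5%. The level of Aldoa was far above that of Tlcd3b, so the Tlcd3b value would be sensitive to strand despite the short overlap. Whether Aldoa reads entered the Tlcd3b value was not tested, and the use of strand in counting is not stated in any label. On its other side lies 4930451I11Rik, which was listed at 0 in all WT libraries.

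Of the other tested neighbours named here, limma called 0. Alg14, a gene of protein glycosylation beside Tlcd4, averaged 9.79 ± 0.929 TPM for WT against 9.69 ± 1.08 TPM for mKO (adjusted p = 0.977, limma). Rwdd3, on the other side, was under the filter at 0.377 ± 0.094 and 0.359 ± 0.0986 TPM. Cope, a coat protein gene beside Cers1, stood at 37.7 ± 1.503 and 35.5 ± 1.32 TPM (adjusted p = 0.671, limma). Gemin4 shares 2875 exon bases with Tlcd3a on the opposite strand and had 1.13 ± 0.652 TPM for WT against 2.34 ± 0.491 TPM for mKO, without overlap (adjusted p = 0.338, limma). Rpl23a, a ribosomal protein gene at 574 ± 56.3 and 539 ± 4.85 TPM, shares 506 exon bases with Tlcd1 on the opposite strand, so the low value of Tlcd1 would be sensitive to strand. Mir22hg, beside Tlcd2, shares 206 of the 1936 exon bases of Tlcd2, on the same strand. It averaged 32.75 ± 5.19 TPM for WT against 32.93 ± 4.45 TPM for mKO (adjusted p = 0.99, limma). How reads of that shared stretch were assigned was not tested.

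Other genes of sphingolipid metabolism were read from the same fit to place the members in their pathway. Of 69 genes in 6 lists, 54 were tested and limma-trend called 0, with 6 at an unadjusted p under 0.05. Over all 12301 tested genes 1311 were under that p and 64 were called, so both counts are close to the background. Limma-voom on recovered reads and the other 13 settings also called 0. The median log2 fold change was 0.03 over the 54 genes, with 20 below 0 and 34 above, beside −0.01 over all tested genes. The lowest adjusted p of the 54 was 0.144 (limma).

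Upstream of the synthases, the enzymes that make and modify the sphingoid base did not pass the test. Sptlc1, a subunit of serine palmitoyltransferase, averaged 7.63 ± 0.373 TPM for WT against 7.91 ± 0.513 TPM for mKO (adjusted p = 0.889, limma). Ormdl3, an inhibitor of that enzyme, averaged 35.0 ± 2.97 and 35.0 ± 3.38 TPM (adjusted p = 0.997, limma). Degs1, the desaturase that turns dihydroceramide into ceramide, had 27.1, 23.4 and 21.7 TPM for WT against 27.6, 30.2 and 28.4 TPM for mKO. Its groups did not overlap, though by a small margin, and its log2 fold change of 0.25 did not pass (adjusted p = 0.334). Of 9 tested genes of fatty acid elongation, which supplies the acyl groups, 0 were called (median 0.12), and Tecr, the last enzyme of each elongation round, averaged 202 ± 13.5 and 224 ± 20.5 TPM (adjusted p = 0.588).

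Downstream, of 11 tested genes of ceramide transport and conversion 0 were called (median 0.09), and of 15 genes of breakdown 0 were called (median 0.03). St3gal5, which makes a ganglioside, was the one with the highest level in the first list, at 232 ± 8.56 TPM for WT against 204 ± 10.01 TPM for mKO (log2 fold change −0.18, adjusted p = 0.263, limma). Its groups did not overlap. Cert1, the ceramide transfer protein, averaged 22.5 ± 0.791 TPM for WT and was at 102% of that in mKO (adjusted p = 0.905, limma). Asah1, acid ceramidase, averaged 17.1 ± 0.965 TPM for WT and 20.1 ± 1.65 TPM for mKO (adjusted p = 0.352, limma). Groups did not overlap for Asah1 and for some other uncalled genes of these lists. Of 11 tested genes of sphingosine 1-phosphate metabolism and signalling 0 were called (median −0.05). The largest difference in any sphingolipid list was that of Spns2, a sphingosine 1-phosphate exporter, at 12.8, 11.99 and 11.9 TPM for WT against 8.23, 10.4 and 8.47 TPM for mKO (log2 fold change −0.41, adjusted p = 0.144). Spns2 and Asah1 lie outside the naming rule: both were picked with their values in view.

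Of 6 other TLC domain genes 4 were tested and 0 called, at a median of −0.01 and with 0 at an unadjusted p under 0.05. Tram1, of the protein translocation channel, averaged 15.5 ± 0.536 TPM for WT against 15.5 ± 0.495 TPM for mKO, Cln8 5.36 ± 0.311 and 5.25 ± 0.249 TPM, and Tlcd5 3.14 ± 0.23 and 3.04 ± 0.306 TPM. Cers3, the synthase of skin and testis, had at most 0.0614 TPM.

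**Figure D5:**
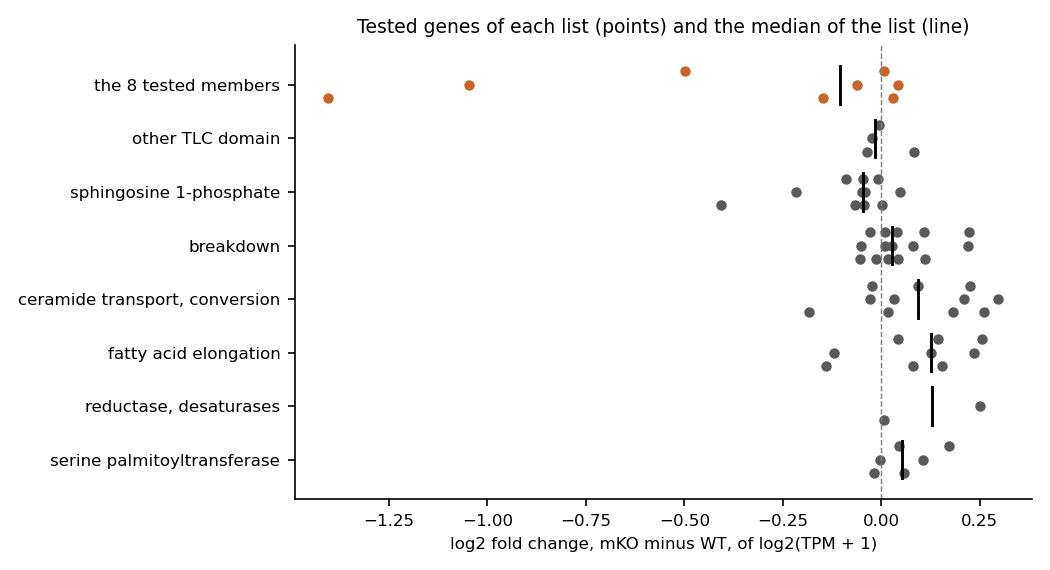
Log2 fold change, mKO minus WT, of log2(TPM + 1) for the tested genes of each sphingolipid list, the other TLC domain genes and the 8 tested members (orange), with the list median as a line. The tested sphingolipid genes lie between −0.41 and 0.30, while Tlcd3b and Tlcd4 lie at −1.40 and −1.05. Both were known to be lower in this contrast when the set was chosen, so nothing is read from their place outside that range.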

How the data were processed

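Poly(A) RNA of soleus was sequenced in 6 libraries (3 WT, 3 mKO, grouped by title). TPM values were deposited by the authors, 1 file a library, and their build is GRCm39 per the submitters' processing notes. Aligner, counter and use of strand are not given in the sources used here. The members and lists were chosen with earlier results of these data known. Limma-trend (limma 3.58.1, R 4.3.3) was fitted on log2(TPM + 1) for 12301 genes (3 or more libraries at 1 TPM or above), with genotype as the only term and Benjamini-Hochberg adjustment over all of them; SE and 95% intervals come from this fit. Fold changes on this scale understate those of low genes. The fit was also run on simulated data, and nothing here is read from that run. TPM multiplied by GENCODE M21 exon length and a scale per library gave whole reads within 0.05 in all libraries for 93.13% of 22734 matched genes, all 10 members included. Fam57a, Fam57b and Tmem56 of that annotation were matched to Tlcd3a, Tlcd3b and Tlcd4. The naming rule took all members, Stard7, called pathway genes, up to 3 uncalled genes of the highest mean per list, nearest neighbours in RefSeq gene order, and the 4 genes most like Tlcd3b, Tlcd4 and Cers1; not all are printed. The 14 other settings were other filters, pseudocounts of 0.1 and 0.5, other scalings, limma-voom on recovered reads, a replicate block, and each library left out. Proteins were not analysed here.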

Additional observations from a re-analysis of the deposited data

How the results depend on the processing

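Over all tested genes limma-trend called 64, with 12 higher and 52 lower in mKO. Without genes of the mitochondrial genome there were 41 calls, 21 higher and 20 lower, so that 51.2% of calls were higher in place of 18.8%. With no filter on low values there were 6 calls, 2 higher and 4 lower, over 24964 genes. Limma-voom on recovered reads gave 94 calls, 35 higher. The replicate block gave 21 calls, 5 higher and 16 lower, and under it Tlcd3b was called at −1.40 and Tlcd4 was not at −1.05. The causes were not tested. The labels give same-numbered libraries only a shared number, and whether they were handled together is not stated. The correlation of their deviations from the group means was 0.09, 0.05 and 0.13 for replicates 1, 2 and 3. Every library correlated best with its own number, which is a hint from the data and not the design. Fits on 5 libraries gave 4 to 94 calls, 1 to 18 higher and 3 to 76 lower. Without a filter neither Tlcd3b nor Tlcd4 was called. The median of the sphingolipid genes was 0.14 without genes of the mitochondrial genome, beside 0.09 for all genes. The difference in the share of Tlcd3b lay between −24.1 and −18.2 points and that of Cers1 between −3.91 and −3.11 points over the libraries left out. Tested members without a call crossed 0 when libraries were left out, except Cers1, which stayed between −0.528 and −0.458. Tlcd1 ranged from −0.0222 (without WT replicate 1) to 0.114, and was at −0.004 without mKO replicate 3. Tlcd2 ranged from −0.31 to 0.0311 (without WT replicate 2). Cers2 ranged from −0.0321 (without mKO replicate 2) to 0.101, and Cers4 from −0.123 to 0.032 (without WT replicate 2). Cers5 ranged from −0.112 (without mKO replicate 2) to 0.0765, and was at −0.0287 without WT replicate 1. Cers4 was also at 0.0097 without genes of the mitochondrial genome. Counting error is larger at low depth: Tlcd1, Tlcd2, Tlcd3a, Cers1 and Cers6 had 84 to 257 recovered reads per library, and Tlcd4 had 128 to 200 in mKO.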
